A study of Mus musculus with 16 samples.

Results

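Serum response factor (SRF) and the proteins that work with it at gene promoters were followed at the RNA level in mouse hearts lacking CAP2. The 7 genes were chosen by name, with earlier results of these data known. They were Srf, the coactivator genes Mrtfa, Mrtfb and Myocd, and the ternary complex factor genes Elk1, Elk3 and Elk4. All 7 were found among the 38087 genes of experiment A and among the 54232 genes of experiment B, with Mrtfa and Mrtfb under their older symbols Mkl1 and Mkl2. All 7 also passed the filter on low values in both experiments. The question was whether the pathway's own factors change in amount when CAP2, a protein that binds actin monomers and promotes filament turnover, is missing.

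Experiment A compared whole hearts of 86-week-old CAP2-/- females (3 libraries) with those of WT females of that age (3 libraries). Experiment B set hearts of 13-week-old mice with loxP/loxP alleles and a Myh6-Cre transgene (Cre+, 4 libraries, 3 of females and 1 of a male) against hearts of loxP/loxP mice without Cre (control, 5 libraries, 3 of females and 2 of males). All animals were of the C57BL/6 strain. The Myh6 promoter drives Cre in cardiomyocytes, so other heart cells keep Cap2, and because no group carried Cre alone, effects of Cre and of losing Cap2 cannot be told apart.

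SRF is a DNA-binding protein that recognises the CArG box, a pair of C bases, a run of A or T bases and a pair of G bases. Its activity depends on the partner it holds. The myocardin-related factors MRTF-A and MRTF-B are kept inactive by binding actin monomers and enter the nucleus when monomers are used up in filaments, whereas myocardin, the product of Myocd, is nuclear and found mainly in heart and smooth muscle. The ternary complex factors ELK1, ELK3 and ELK4 are phosphorylated by MAP kinases and compete with the MRTFs for the same surface of SRF. The first route is known for genes of the contractile and cytoskeletal apparatus, and the second for immediate early genes.

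The Srf promoter is shown because it holds the motif that the SRF protein itself binds. The RefSeq window from 250 bases before to 50 bases after the Srf start (GRCm38.p6, chr17:46556113-46556412, minus strand) reads, with CArG boxes in capitals:
Srf promoter: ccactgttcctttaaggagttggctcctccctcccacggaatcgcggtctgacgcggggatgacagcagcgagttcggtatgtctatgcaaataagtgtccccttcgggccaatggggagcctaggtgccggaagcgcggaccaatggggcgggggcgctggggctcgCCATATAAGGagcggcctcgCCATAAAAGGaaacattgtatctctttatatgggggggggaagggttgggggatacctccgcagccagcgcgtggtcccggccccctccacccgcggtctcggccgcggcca
The boxes lie at -82 to -73 and -62 to -53 from the start. A search of all 32851 RefSeq windows on both strands found a CArG box in 1.63% of them and at least 2 boxes in 6 windows (0.0183%), of which the Srf window is one. Windows were given for 6 of the 7 genes, 11 windows in all, and Srf's was the only one of the 11 with a CArG box. The letters CCGGAAG, a core that ternary complex factors and other ETS proteins bind, were present on either strand in 8.86% of all windows and in 2 of these 11, those of Srf and Elk4. For comparison, the boxes of Srf are set beside those in the promoters of the SRF target genes Acta1 (chr8:123894829-123894858, minus strand) and Myl9 (chr2:156775293-156775322, plus strand), which are described below:
Srf box 1: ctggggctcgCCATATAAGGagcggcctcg
Srf box 2: agcggcctcgCCATAAAAGGaaacattgta
Acta1 box: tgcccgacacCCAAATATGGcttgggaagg
Myl9 box: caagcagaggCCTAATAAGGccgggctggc
A match to these letters describes the sequence and is not evidence of binding in these hearts.

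Depth in experiment A was 10750175 to 27440478 estimated counts per library, and values are given scaled to library size (CPM). In experiment B the deposited values are normalized counts of unknown depth, whose nuclear genes summed to 3815980 to 4044523 per library. Mitochondrial genes took 23.0% to 52.7% of the total in Cre+ libraries and 30.4% to 69.5% in control libraries. Cap2 was at 8.36 to 16.1 CPM in CAP2-/- hearts, against 197.4 to 228.4 CPM in WT hearts (log2 fold change -4.13, SE 0.20, edgeR adjusted p = 1e-07). It was at 33.0 to 87.0 normalized counts in Cre+ hearts, below every control library, of which the highest had 878.0 (log2 fold change -2.22, SE 0.36, limma adjusted p = 0.0161), a call that was lost without Cre+ replicate 4 (adjusted p = 0.0922) or control replicate 1 (0.0687). One control library of experiment B, replicate 4, stood apart: it held 11130 normalized counts of Ryr2, a cardiomyocyte marker, where the other 8 libraries held 1315 to 3583. The Srf and Myocd fits of experiment B are therefore given with and without it. Other values hold it unless stated.

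In 86-week-old hearts, Myocd was the member that changed. Its RNA was lower in CAP2-/- hearts, at 59.7% of the WT level, while Srf, the MRTF genes and the ELK genes did not pass the test. An adjusted p under 0.05 is termed called here, and 1 of the 7 members was called, where 1.35% of all 16297 genes tested were called, 0.509% as lower. Groups did not overlap for 2 of the 7, Myocd and Srf, and for 15.6% of all genes tested.

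**Figure D1:**
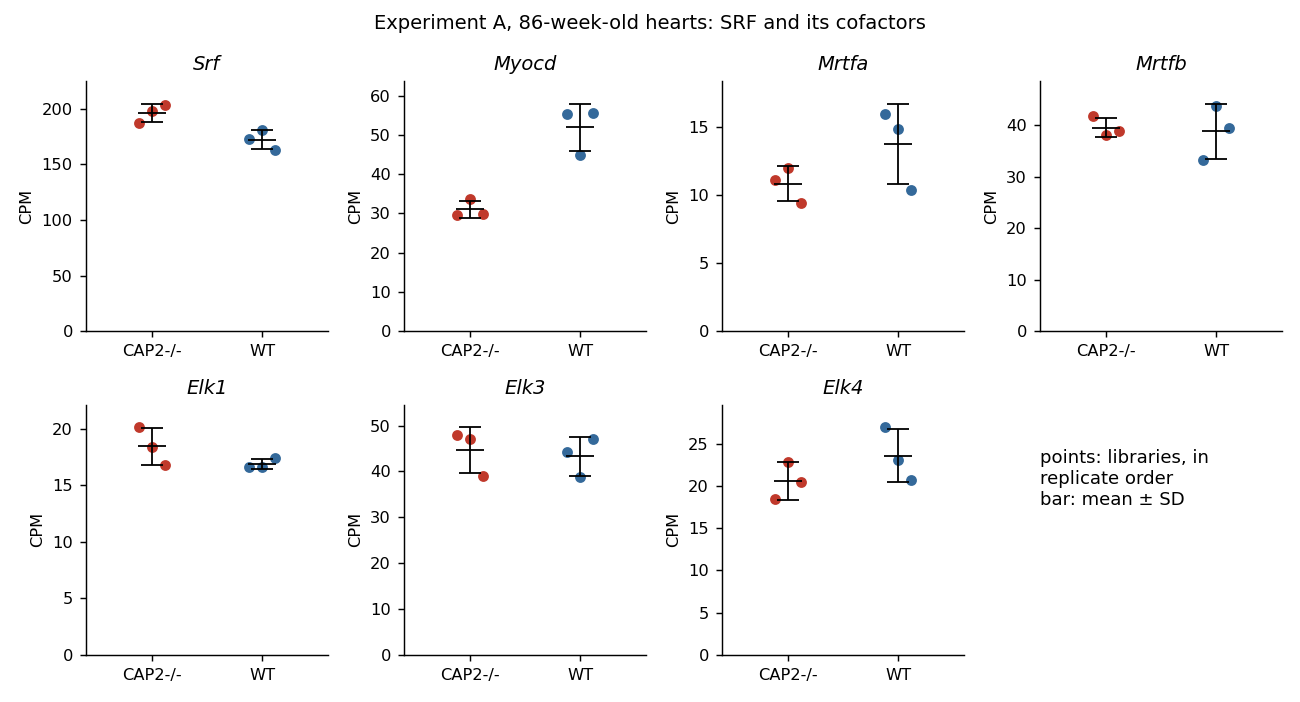
CPM (vertical axes, from 0) of the 7 genes in each library of experiment A, CAP2-/- left and WT right; points are libraries and bars the mean ± SD of 3. The 3 CAP2-/- libraries lie below the 3 WT libraries for Myocd, at 29.7 to 33.6 against 44.9 to 55.5 CPM, and above them for Srf, at 187.5 to 203.7 against 163.2 to 180.5 CPM.

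Srf (ENSMUSG00000015605, mm10 chromosome 17, 46546839 to 46556162, minus strand) had 187.5, 197.7 and 203.7 CPM in the CAP2-/- libraries, against 172.6, 180.5 and 163.2 CPM in the WT libraries. Every CAP2-/- library was above every WT library, by a small margin. The log2 fold change was 0.19 (SE 0.11, 95% interval -0.04 to 0.42) and the edgeR adjusted p was 0.602. The interval therefore reaches no further than a fold of 1.34.

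Myocd (ENSMUSG00000020542, chromosome 11, 65176561 to 65269989, minus strand) encodes myocardin, a potent coactivator of SRF. It had 29.7, 33.6 and 29.8 CPM in the CAP2-/- libraries, against 55.2, 44.9 and 55.5 CPM in the WT libraries. The groups were well apart, with means of 31.0 ± 2.18 CPM in CAP2-/- hearts and 51.9 ± 6.03 CPM in WT hearts (SD, n = 3 each). It fell by 0.74 on the log2 scale in CAP2-/- hearts (SE 0.13, 95% interval -1.03 to -0.46, edgeR adjusted p = 0.00627). The authors' deposited table gives a log2 fold change of -0.75 and an adjusted p of 6.84e-05 for Myocd, which ranked 119 by adjusted p among 17250 genes, of which 451 (2.61%) were below 0.05. Leaving out CAP2-/- replicate 3 ended the call (log2 fold change -0.72, adjusted p = 0.0586), and over all alternatives the adjusted p was 2.34e-05 to 0.0586.

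The actin-regulated coactivators did not pass the test in these hearts. Mrtfa (ENSMUSG00000042292, chromosome 15, 81012281 to 81190757, minus strand) had 11.1, 12.0 and 9.46 CPM in CAP2-/- libraries, against 16, 14.9 and 10.4 CPM in WT libraries. The lowest WT library lay among the CAP2-/- ones, and the log2 fold change of -0.34 (SE 0.20, 95% interval -0.77 to 0.09) had an edgeR adjusted p of 0.625. Mrtfb (ENSMUSG00000009569, chromosome 16, 13256481 to 13417529, plus strand) had 41.7, 38.1 and 38.8 CPM in CAP2-/- libraries, against 33.2, 43.8 and 39.5 CPM in WT libraries. The WT libraries spanned the CAP2-/- ones, with a log2 fold change of 0.03 (SE 0.13, 95% interval -0.25 to 0.32, edgeR adjusted p = 0.966).

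Among the ternary complex factors, Elk1 (ENSMUSG00000009406, chromosome X, 20933395 to 20950608) had 20.1, 18.4 and 16.8 CPM in CAP2-/- libraries, against 16.6, 16.6 and 17.4 CPM in WT libraries. Elk3, also known as Net and able to repress SRF targets (ENSMUSG00000008398, chromosome 10, 93247414 to 93311135), had 47.9, 47.1 and 39.0 CPM in CAP2-/- libraries, against 44.2, 38.7 and 47.1 CPM in WT libraries. Elk4, or SAP-1 (ENSMUSG00000026436, chromosome 1, 132007607 to 132032612), had 18.4, 22.8 and 20.5 CPM in CAP2-/- libraries, against 26.9, 23.0 and 20.7 CPM in WT libraries. The groups overlapped for all 3 genes. Their log2 fold changes were 0.13 for Elk1 (SE 0.15, edgeR adjusted p = 0.852), 0.04 for Elk3 (SE 0.13, adjusted p = 0.954) and -0.20 for Elk4 (SE 0.16, adjusted p = 0.749). The 95% intervals ran from -0.20 to 0.46 for Elk1, from -0.24 to 0.32 for Elk3 and from -0.53 to 0.14 for Elk4.

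The deposited table of experiment A also holds reads per exonic block and the share of each annotated transcript, and these show where in the gene the Myocd difference lay. Of the 16 exonic blocks of Myocd, 11 held at least 50 WT reads, and 10 of those 11 were lower in CAP2-/- hearts. The CAP2-/- level was 36.5% to 115.5% of the WT level, with a median of 54.2%. Blocks 12 and 16 held the most reads. Block 12 (65186919 to 65187815) had 7.48, 8.93 and 8.24 CPM in CAP2-/- libraries, against 16.9, 13.6 and 15.8 CPM in WT libraries. Block 16 at the 3' end (65176561 to 65179016) had 11.6, 11.7 and 9.12 CPM in CAP2-/- libraries, against 19.0, 13.6 and 19.3 CPM in WT libraries. Both blocks were lower in every CAP2-/- library than in any WT library. The exception among the 11 was block 11, at 1.97, 2.05 and 3.02 CPM in CAP2-/- libraries, against 1.4, 2.26 and 2.44 CPM in WT libraries.

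**Figure D2:**
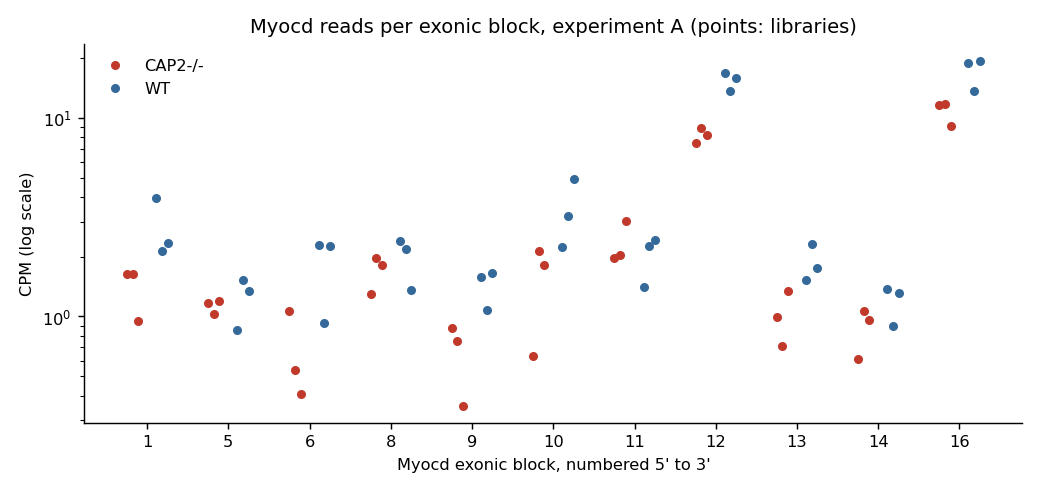
CPM (log scale) of the 11 Myocd exonic blocks with at least 50 WT reads in experiment A, numbered from the 5' end, with CAP2-/- libraries left of WT libraries in each block. In 10 of the 11 blocks the CAP2-/- mean is below the WT mean.

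For Srf all 7 blocks held at least 50 WT reads, and the CAP2-/- level was 94.2% to 123.0% of WT, with 2 blocks below 100%. Among the blocks with enough reads, the median was 76.0% of WT for Mrtfa (3 blocks), 85.4% for Mrtfb (4 blocks), 113.7% for Elk1 (4 blocks), 118.1% for Elk3 (5 blocks) and 82.5% for Elk4 (4 blocks). Such medians weigh each block alike, whatever its read number. By the gene-level fits the percentages were, in that order, 79.0, 102.2, 109.4, 102.8 and 87.3. Blocks of 1 gene share their libraries and are not replicates.

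Transcript shares gave no separation for any member. Myocd-202 made up 29.0% ± 9.44 of Myocd in CAP2-/- hearts and 29.0% ± 10 in WT hearts (SD, n = 3 each, exact permutation p = 1.0). Myocd-203 made up 26.3% ± 19.6 in CAP2-/- hearts and 26.6% ± 4.49 in WT hearts, and Myocd-201 made up 29.5% ± 13.0 in CAP2-/- hearts and 32.3% ± 12.2 in WT hearts (SD, n = 3 each, exact permutation p = 1.0 and 0.9). Srf was read almost wholly as Srf-201, at 97.4% ± 0.304 in CAP2-/- hearts and 97.4% ± 0.414 in WT hearts (SD, n = 3 each, exact permutation p = 1.0). Across the 16 transcripts with a mean share of at least 5%, the groups overlapped every time and the smallest two-sided exact p was 0.3, where 3 against 3 libraries allow no p below 0.1.

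In bulk tissue, fewer cells of a type and less RNA per cell cannot be told apart. Myocd is read from cardiomyocytes and smooth muscle cells, so their markers are given beside it. The 7 cardiomyocyte markers summed to 64851 to 77676 CPM in CAP2-/- hearts, against 69990 to 79318 CPM in WT hearts. The 8 smooth muscle and pericyte markers summed to 925.1 to 1116.2 CPM in CAP2-/- hearts, against 1035.2 to 1079.7 CPM in WT hearts. Both sums overlapped between groups and no gene of either list was called. Rgs5 made up the largest part of the smooth muscle sum, and only 2 of the 8 markers had a positive log2 fold change (median -0.14). Myh11 was at 0.785-fold and Notch3 at 0.717-fold (edgeR adjusted p = 0.511 and 0.449), while Smtn was at 1.34-fold (adjusted p = 0.121). Within the cardiomyocyte list, where Myh6 made up the largest part of the sum, Ryr2 and Tnni3 did not overlap. Ryr2 was at 1466.1 to 1477.5 CPM in CAP2-/- hearts, against 1757.7 to 2314.4 CPM in WT hearts (log2 fold change -0.42, edgeR adjusted p = 0.113). Tnni3 was at 4895.0 to 6682.9 CPM in CAP2-/- hearts, against 6874.0 to 7168.6 CPM in WT hearts (-0.27, adjusted p = 0.431). Of the 7 markers of that list, 4 had a positive log2 fold change. Fibroblast markers, 7 genes of which none was called, summed to 1026.5 to 1163.1 CPM in CAP2-/- hearts, against 835.3 to 910.1 CPM in WT hearts. Dcn made up most of that sum and of its difference, with means of 654.2 against 466.6 CPM. The other fibroblast markers were at 0.918-fold (Pdgfra) to 1.19-fold (Dpt), with Col1a1 at 0.995-fold. The 6 atrial markers summed to 55.7 to 62.3 CPM in CAP2-/- hearts, against 46.9 to 49.5 CPM in WT hearts, with Dkk3 called (log2 fold change 1.26, edgeR adjusted p = 0.00191). Mean Dkk3 was 18.8 against 7.85 CPM and mean Myl4 10.6 against 6.29 CPM, whereas Stard10 was lower, at 25.3 against 32.9 CPM. The others were near the floor: Myl7 at 1.35 against 1.24 CPM, Bmp10 at 1.8 against 0.176 CPM and Sln at 0 to 0.184 CPM. The 7 skeletal muscle markers, none called, summed to 27.1 to 32.5 CPM in CAP2-/- hearts, against 16.4 to 25.8 CPM in WT hearts. The part of these cell types in the Myocd difference was not tested.

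In 13-week-old hearts no member was called. Srf had the largest difference from 0 relative to its error, at 1.49 times the control level in Cre+ hearts, but it missed the threshold once p was adjusted over all genes. Of 7 members 0 were called by limma, where 1.88% of the 12141 genes tested were called, and groups did not overlap for 0 of 7 members, against 8.66% of all genes. Srf alone had an unadjusted p under 0.05, and no alternative setting called any member.

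**Figure D3:**
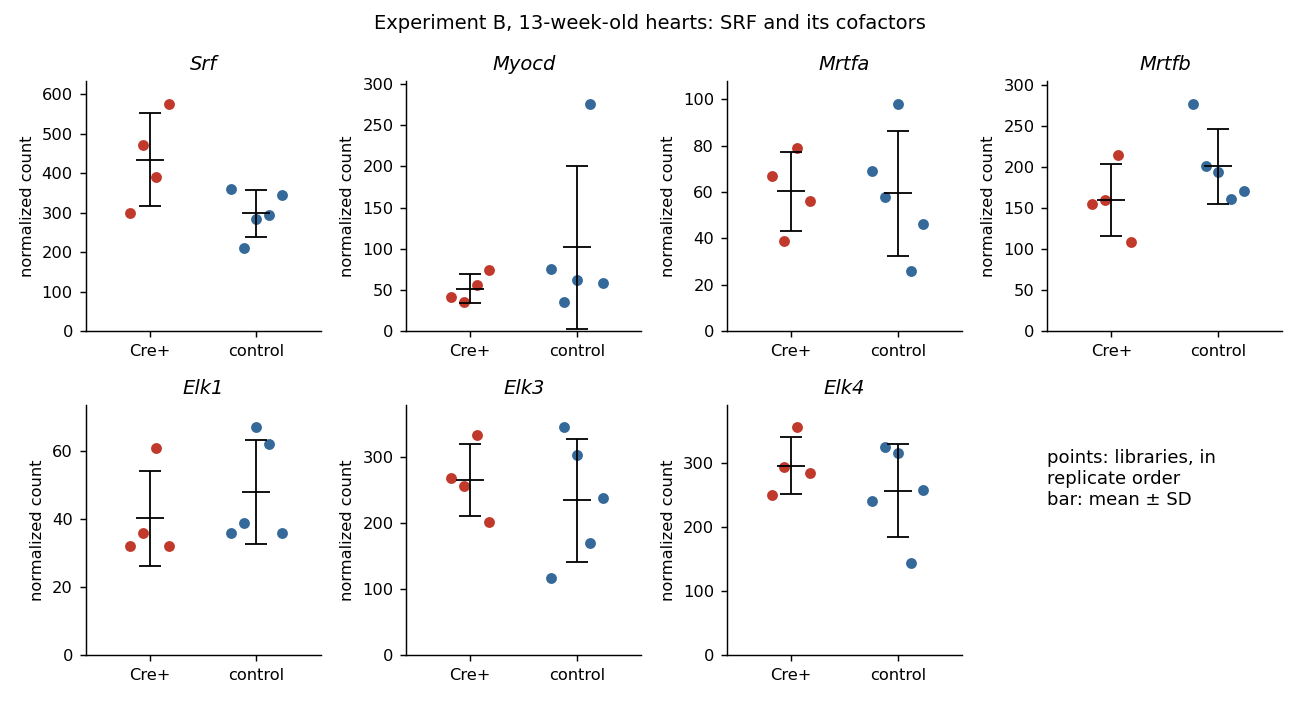
Normalized counts (vertical axes, from 0) of the 7 genes in each library of experiment B, Cre+ left and control right; points are libraries and bars the mean ± SD of 4 and 5. Srf is at 300.0 to 576.0 in Cre+ and 211.0 to 359.0 in control, and the Myocd control mean is drawn up by replicate 4 at 276.0.

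Srf had 300, 472, 390 and 576 normalized counts in the Cre+ libraries, against 359, 211, 283, 294 and 344 in the control libraries. Cre+ replicates 2 to 4 were above every control, and Cre+ replicate 1 lay among the controls. The log2 fold change was 0.58 (SE 0.23, 95% interval 0.07 to 1.09, unadjusted p = 0.0301, limma adjusted p = 0.184). It was 0.45 in females alone (adjusted p = 0.393) and 0.53 without control replicate 4 (adjusted p = 0.18).

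Atrial markers, like Srf, were above every control in Cre+ replicates 2 to 4 when summed, but they did not rank the libraries as Srf did. Their sum over 6 genes was 671, 20171, 44132 and 43918 normalized counts in Cre+ replicates 1 to 4, against 109 to 7992 in the controls. Cre+ replicate 1 was therefore the Cre+ library nearest to the controls for both Srf and the atrial sum. Cre+ replicate 3 had the highest atrial sum but less Srf than replicates 2 and 4 (390 normalized counts against 472 and 576). Among controls, replicate 3 had the highest atrial sum with 283 of Srf. Control replicate 1 had the most Srf (359) with an atrial sum of 347. Fibroblast markers summed to 9863 to 25205 in Cre+ libraries, against 3152 to 12681 in control libraries. The part of atrial tissue and of fibroblasts in the Srf values was not tested.

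Myocd had 42, 35, 56 and 74 normalized counts in the Cre+ libraries, against 76, 35, 62, 276 and 59 in the control libraries. Replicate 4 of the controls was high, and the other 4 controls covered the same range as Cre+. The log2 fold change was -0.47 (SE 0.42, 95% interval -1.40 to 0.46, limma adjusted p = 0.534) with that library and -0.17 (SE 0.30, adjusted p = 0.776) without it. The interval includes both 0 and the fall measured in experiment A.

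Mrtfa had 67, 39, 79 and 56 normalized counts in Cre+ libraries, against 69, 58, 98, 26 and 46 in control libraries. Its log2 fold change of -0.0013 (SE 0.33, limma adjusted p = 0.999) changed sign with the scaling and lay within 0.73 of 0 by its 95% interval. Mrtfb had 155, 160, 215 and 109 normalized counts in Cre+ libraries, against 277, 201, 194, 161 and 171 in control libraries. Of the 4 Cre+ libraries 3 were below every control and the other lay among them, and the log2 fold change was -0.42 (SE 0.21, 95% interval -0.88 to 0.04, limma adjusted p = 0.264).

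Elk1 had 32, 36, 61 and 32 normalized counts in Cre+ libraries, against 36, 39, 67, 62 and 36 in control libraries. Elk3 had 267, 256, 333 and 201 in Cre+ libraries, against a lowest of 116, a median of 237 and a highest of 344 in control libraries. Elk4 had 250, 294, 356 and 285 in Cre+ libraries, against 241, 326, 316, 144 and 258 in control libraries. The groups overlapped for all 3 ternary complex factor genes. Their log2 fold changes were -0.26 for Elk1 (SE 0.32, limma adjusted p = 0.657), 0.21 for Elk3 (SE 0.31, adjusted p = 0.713) and 0.19 for Elk4 (SE 0.24, adjusted p = 0.669).

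The median log2 fold change of all genes tested was -0.12 in experiment B, against 0.01 in experiment A. Scaling experiment B on its nuclear genes with TMM brought that median to -0.01, and Srf was then 0.68 (adjusted p = 0.162) and Myocd -0.36 (adjusted p = 0.639).

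**Figure D4:**
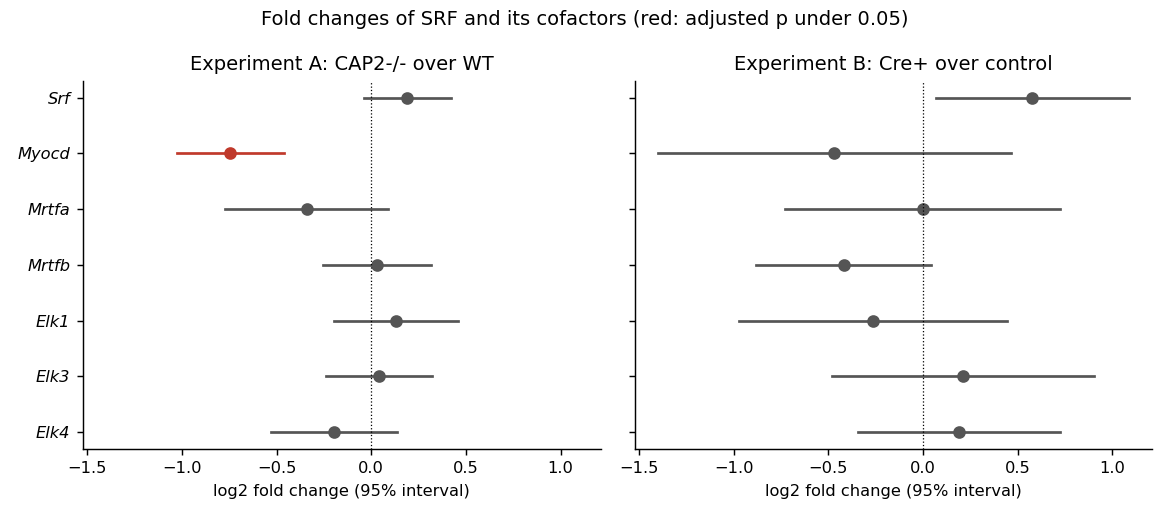
Log2 fold changes (horizontal axis) with 95% intervals for the 7 genes, CAP2-/- over WT on the left and Cre+ over control on the right; red marks an adjusted p under 0.05. Myocd in experiment A, at -0.74, is the 1 red point, and the intervals of experiment B are wider.

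Per kilobase of merged exons, Srf RNA was the most abundant of the 7 in all 6 libraries of experiment A and in 8 of the 9 libraries of experiment B. In CAP2-/- hearts the order of the levels was Srf (45.8 to 49.8 CPM per kb), Elk3 (8.58 to 10.5), Myocd (4.63 to 5.22), Mrtfb (4.24 to 4.64), Elk4 (3.35 to 4.16), Elk1 (3.12 to 3.74) and Mrtfa (1.55 to 1.97). The ranges of Myocd and Mrtfb overlapped there, as did those of Elk4 and Elk1. In WT hearts it was Srf (39.9 to 44.1 CPM per kb), Elk3 (8.5 to 10.3), Myocd (6.99 to 8.65), Mrtfb (3.7 to 4.87), Elk4 (3.77 to 4.91), Elk1 (3.08 to 3.23) and Mrtfa (1.7 to 2.61). Here Myocd overlapped Elk3 above it and lay clear of Mrtfb below it, and Mrtfb and Elk4 overlapped.

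In Cre+ hearts Srf was at 73.3 to 140.7 normalized counts per kb, Elk3 at 44.2 to 73.2, Elk4 at 45.6 to 64.9 and Mrtfb at 12.1 to 23.9. Mrtfa (6.38 to 12.9), Myocd (5.45 to 11.5) and Elk1 (5.95 to 11.3) followed and overlapped one another, and Mrtfa also overlapped Mrtfb. In control hearts Srf (51.6 to 87.7), Elk3 (25.5 to 75.6) and Elk4 (26.3 to 59.5) overlapped. Mrtfb (17.9 to 30.8) overlapped Elk3, Elk4 and Myocd (5.45 to 43.0), and Myocd overlapped Mrtfa (4.25 to 16) and Elk1 (6.69 to 12.5). The overlaps of Mrtfb with Elk4 and Myocd rested on control replicate 4, at 26.3 for Elk4 and 43.0 for Myocd. The other controls were at 44.0 to 59.5 for Elk4 and at 5.45 to 11.8 for Myocd. Control replicate 2 was the library in which Elk3 and Elk4 were above Srf. Elk4 stood higher in the order in experiment B than in experiment A, where age, library kit and unit also differ and cannot be told apart.

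Because Srf and Myocd are read in the same library, their ratio does not depend on how libraries were scaled. It was noticed after the values were seen and is given as a description, with no test. Srf per kb over Myocd per kb was 9.9, 9.25 and 10.7 in CAP2-/- libraries, against 4.91, 6.31 and 4.61 in WT libraries. In experiment B it was 11.2, 21.2, 10.9 and 12.2 in Cre+ libraries, against 7.41, 9.46, 7.16, 1.67 and 9.15 in control libraries. Groups did not overlap in either experiment, with or without control replicate 4, whose ratio was the lowest. For CAP2-/- and WT this had to follow, because Srf and Myocd levels each separated those groups, in opposite directions. For Cre+ and control, the levels of neither gene separated the groups. Levels of single genes did so for 15.6% (experiment A) and 8.66% (experiment B) of genes tested. Those shares do not show how often a ratio of genes would separate the groups, which was not tested. Among the other cofactors the ratio of Srf also separated the groups of experiment A for Mrtfa (24.6 to 32.2 in CAP2-/- and 16.2 to 23.5 in WT) and Elk4 (11.6 to 13.7 in CAP2-/- and 8.59 to 10.6 in WT), and for no other cofactor in experiment B.

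**Figure D5:**
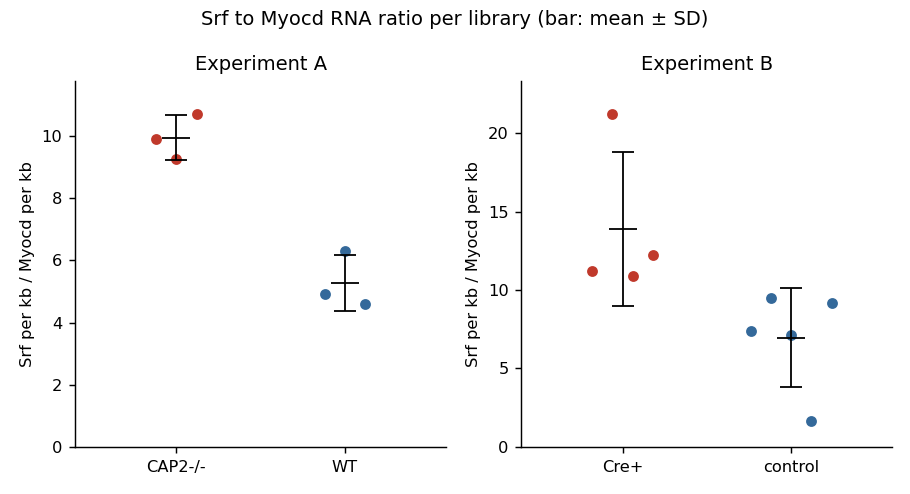
Srf RNA per kb divided by Myocd RNA per kb in each library (vertical axes, from 0), CAP2-/- left of WT and Cre+ left of control; points are libraries and bars the mean ± SD. The ratio is 9.25 to 10.7 in CAP2-/- against 4.61 to 6.31 in WT, and 10.9 to 21.2 in Cre+ against 1.67 to 9.46 in control.

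The genes most like Srf in experiment B were sought by the Pearson r of log2 values over its 9 libraries, among 8500 genes with a mean of at least 50. Among the first 3 were P2ry2, a receptor for extracellular nucleotides (r = 0.94), and Ifrd1 (r = 0.94). Over the 6 libraries of experiment A, r with Srf was 0.36 for P2ry2 and 0.27 for Ifrd1. For Myocd they were Gpd1l, Prune1 and Cenpf (r = 0.96, 0.96 and 0.95), which rested in part on control replicate 4: without it r was 0.78, 0.80 and 0.76. In experiment A, r with Myocd over the 6 libraries was -0.05 for Gpd1l, 0.89 for Prune1 and -0.74 for Cenpf. Srf and Myocd themselves had r = 0.0009 over the 9 libraries of experiment B (0.40 without control replicate 4) and r = -0.90 over the 6 of experiment A. All these points share library composition and group differences.

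Around the members, genes of the pathway were read from the same fits, as lists chosen with earlier results known. Among genes that set the actin state that MRTFs sense, 0 of 19 tested were called by edgeR in CAP2-/- hearts (median log2 fold change -0.06), 3 had an unadjusted p under 0.05 and DESeq2 called 1. The smallest p-values there belonged to the formin gene Fhod3 (log2 fold change -0.40, edgeR adjusted p = 0.0772) and the cofilin gene Cfl2 (0.31, adjusted p = 0.274). In Cre+ hearts 1 of 19 was called: Abra, also known as STARS, an actin-binding activator of MRTF signalling in striated muscle, was higher at 907.2 against 171.6 normalized counts (log2 fold change 2.30, SE 0.49, limma adjusted p = 0.0418). That call was lost in females alone (adjusted p = 0.136), with no sex term (0.064), with the mitochondrial share as a covariate (0.165), without Cre+ replicate 2 or 4 (0.122 and 0.218) and without control replicate 2, 3 or 4 (0.115, 0.0981 and 0.0501).

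In the MAP kinase arm, which acts on the ternary complex factors, 0 of 12 genes were called by edgeR or DESeq2 in experiment A (median log2 fold change -0.03, 0 with an unadjusted p under 0.05) and 0 by limma in experiment B (median -0.15, 2 with an unadjusted p under 0.05). Its smallest p-values were for Map2k2 (log2 fold change -0.16, edgeR adjusted p = 0.695) and Mapk8 (-0.23, adjusted p = 0.726) in CAP2-/- hearts. In Cre+ hearts the smallest p was for Mapk14, the p38-alpha kinase (-0.76, limma adjusted p = 0.0904). Of 15 other partners of SRF, Csrp2, a LIM protein that bridges SRF and GATA factors, was called in CAP2-/- hearts, at 26.2 against 8.53 CPM in WT (log2 fold change 1.65, SE 0.22, edgeR adjusted p = 0.000514). No partner was called lower there by edgeR with its filter on all libraries. With DESeq2, with edgeR and no filter, or with CAP2-/- replicate 1 left out, 1 was called lower. Hopx, a repressor of SRF activity, had a log2 fold change of -0.52 in CAP2-/- hearts (edgeR adjusted p = 0.0637). In Cre+ hearts 0 of the 15 were called by limma and 5 had an unadjusted p under 0.05, with Hopx at a log2 fold change of -0.85 (limma adjusted p = 0.0856) and Csrp2 at 2.12 (adjusted p = 0.104). Csrp2 was called there without control replicate 5 (adjusted p = 0.03).

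Of 28 known targets of MRTF and SRF, genes of the contractile and cytoskeletal apparatus among them, 10 were called higher and 0 lower in CAP2-/- hearts (median log2 fold change 0.33, against 0.01 over all genes, of which 0.841% were called higher). In Cre+ hearts 7 were called higher and 0 lower (median 1.15, against -0.12 over all genes, of which 0.947% were called higher). Acta1, Acta2, Ankrd1, Ccn2, Myl9 and Pdlim7 were called in both, which is 6 of the 10 and 6 of the 7. RefSeq windows were given for 5 of these 6, not for Ccn2, and those of Acta1 and Myl9 held a CArG box, as printed above. With the smallest p-values in CAP2-/- hearts, Myl9, a regulatory myosin light chain, was 23.3-fold higher, the stretch-responsive Ankrd1 5.34-fold, cardiac actin Actc1 2.15-fold and the PDZ-LIM gene Pdlim7 2.58-fold (edgeR adjusted p of 4.81e-09 to 0.000585). In Cre+ hearts skeletal actin Acta1 was 35.5-fold higher, Ankrd1 10.8-fold, Pdlim7 5.42-fold and desmin Des 3.25-fold (limma adjusted p of 0.000395 to 0.0259). The count of 7 in Cre+ hearts fell to 2 without Cre+ replicate 2, 3 or 4 or control replicate 2, and to 4 without control replicate 1 or 3; it was 4 with no filter on low values and 2 when the mitochondrial share was a covariate. Markers of other muscle moved in the same Cre+ libraries: the median log2 fold change of the 6 atrial markers was 4.03 with none called, and of 7 skeletal muscle markers 3 were tested and 2 called higher, Tnnt3 59.4-fold and Tnni2 29.7-fold. The skeletal sums were 288 to 2345 normalized counts in Cre+ libraries, against 12 to 106 in control libraries, with Myh1, Myh2 and Myh4 at 0 to 3 in each of the 9 libraries. The part of either tissue in the target counts was not tested. The calls of Pdlim7 and Des there were lost under 5 and 7 of 17 alternatives.

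Targets of the ternary complex factors, immediate early genes such as Fos and Egr1, gave no call in experiment A by edgeR with its filter or by DESeq2 (2 with an unadjusted p under 0.05), 2 calls as lower by edgeR with no filter on low counts, and none by limma in experiment B (1 with an unadjusted p under 0.05). Of 8 tested in CAP2-/- hearts 0 had a positive log2 fold change (median -0.48), led by Ier2 (-0.67, edgeR adjusted p = 0.135) and Fos (-0.98, adjusted p = 0.32). With no filter the adjusted p was 0.0294 for Ier2 and 0.00168 for Fos, and without WT replicate 1 the log2 fold change of Fos was -0.41 (adjusted p = 0.795). Of 9 tested in Cre+ hearts 8 were positive (median 0.86), led by Egr2 (2.08, limma adjusted p = 0.196) and Junb (1.05, adjusted p = 0.399). Plain means went the other way for 3 of those 8: Fos averaged 32.8 normalized counts in Cre+ against 215.8 in control, Fosb 9.5 against 37.6, and Egr1 185.5 against 296.2. The difference between the experiments was not tested.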

How the data were processed

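Whole mouse hearts were profiled with an Ion Total RNA-Seq kit (experiment A) and a stranded TruSeq kit (experiment B), per the labels' protocols. The submitters' processing notes name mm10, STAR 2.6.0c and DESeq without a role; which tool counted reads, and with which strand setting, is not given in the sources used here. Experiment A was deposited as estimated counts per gene and exonic block, with transcript shares, printed here as percent. The authors' own comparison of it holds a mean normalized signal, log2 fold changes, a test score and p-values, per the file headers. Experiment B was deposited as whole-number normalized counts, treated as a score because how they were normalized is not stated; its depth is unknown, so no count test was run. Of 16 labelled samples, 15 had values; Cre+ replicate 5 was not analysed here. By their labels, the females and males of experiment B must be different animals. Beyond that, nothing says that replicates were separate animals. If they were not, the p-values cover only the spread between samples, which may be technical.

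Estimated counts were rounded and analysed by the robust quasi-likelihood test of edgeR 4.0.16 (R 4.3.3) after TMM and filterByExpr; CPM use TMM-adjusted totals. For experiment B, genes averaging at least 10 entered limma 3.58.1 on log2(value + 1) together with a term for sex, a scale that understates changes of low genes. P-values were adjusted by Benjamini-Hochberg over all genes. Intervals are 95%. Both fits were tested on simulated data, which held no library that stood apart as control replicate 4 of experiment B did. Alternatives included DESeq2 1.42.0, other filters, scalings and covariates, and leaving out each library.

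Members and gene lists were chosen with earlier results of these data known. Named genes are the 7 members, Cap2, and per list and experiment up to 4 called genes with the smallest p, or the 2 with the smallest p where none was called; the targets called in both experiments and the genes most like Srf and Myocd were also named. A few genes named by this rule are not reported here; list counts still hold them. GENCODE M21 held 36308 of the 38087 identifiers of experiment A and 54165 of the 54232 of experiment B. Lengths per kb come from merged deposited exons. Exons of other genes overlap those of Mrtfa (Sgsm3, 10 bases), Mrtfb (Gm15738, 162), Elk1 (Uxt, 76), Elk3 (Cdk17, 316) and Elk4 (Gm29103, 104, and Mfsd4a, 84), so shared reads there are uncertain. Replicates of experiment A varied beyond sampling noise (chi-square per gene 10.7 to 29.1), and no library was counted as a repeat.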

Additional observations from a re-analysis of the deposited data

Results flagged for a closer look

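In groups of 4 or 5 libraries of experiment B, a library was marked where its gap to the nearest other library was large for the range of its group by Dixon's criterion. Of 48 groups examined, 6 were marked, where chance marks about 1 in 20. Control replicate 4 was the high library for Myocd (276.0 normalized counts, with 76.0 next) and Ankrd1 (6120, with 2804 next). Cre+ replicate 3 was high for Elk1 (61.0, with 36.0 next) and Cre+ replicate 4 for Junb (234.0, with 117.0 next). Control replicate 5 was high for Junb (424.0, with 102.0 next). Cre+ replicate 2 had the highest ratio of Srf per kb to Myocd per kb, 21.2, with 12.2 next.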

How the results depend on the processing

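The number of genes called in experiment A, 220 with the settings described, was 394 with DESeq2, 512 with no filter on low counts and 126 to 275 leaving out 1 library. In experiment B the 228 became 346 with no filter, 36 with the mitochondrial share as a covariate, 39 to 695 leaving out 1 library, and 237 (71 of them lower) and 335 (124 of them lower) with TMM and quantile scaling, where 113 of the 228 were lower. The called members of experiment A numbered 0 to 1 leaving out 1 library. Myocd in experiment A had a log2 fold change of -0.84 to -0.69 in those fits, and lost its call without CAP2-/- replicate 3 (-0.72); the cause was not tested beyond the smaller number of libraries. Of the 7 members under the alternatives of experiment A, 65 of 70 values kept direction and call, and 109 of 119 in experiment B. Changes of sign fell on members near 0, except for Elk3 in experiment B (log2 fold change 0.21, SE 0.31). That gene changed sign only without control replicate 1. Leaving out 1 library, Mrtfb (-0.0729 to 0.12) and Elk3 (-0.0323 to 0.13) crossed 0 in experiment A, and Mrtfa (-0.30 to 0.24) and Elk3 (-0.12 to 0.38) in experiment B. Mrtfa in experiment B was also 0.10 with no sex term, 0.10 with TMM, 0.12 with quantile scaling, 0.28 with the mitochondrial covariate and 0.042 with the replicate block. Per kb of the longest transcript in place of merged exons, 17 of 28 group levels moved by more than 1 SD; Srf remained first in each group's mean and Mrtfa last in CAP2-/- and WT, while the order between changed.

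Replicate numbers gave no clear sign of pairing the samples. Same-numbered libraries had correlations of deviations of -0.17 to -0.03 in experiment A and -0.11 to 0.24 in experiment B. For differently numbered libraries these were -0.0649 to 0.2 and -0.465 to 0.355. With so few libraries per group, such values cannot exclude pairing. With the replicate block 148 genes were called in experiment A and 394 in experiment B, and Myocd in experiment A kept its call (adjusted p = 0.0335), while Csrp2 in experiment B gained one (adjusted p = 0.0229). The depth of experiment B is unknown, and low genes such as Elk1 and Myocd are the least precise there.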
